A study of Bos taurus with 20 samples.

Results

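Expression in bovine satellite cell cultures after 96 h in low serum was compared with that in cultures after 24 h in the same medium. The comparison used 8 of the 20 libraries of a serum-starvation time course, those labelled 24 h and 96 h, with 4 replicates (A to D) at each time. All cells were satellite cells of the Belgian Blue breed, cultured with 20% fetal bovine serum and then moved to a differentiation medium with 2%. Both groups were therefore in 2% serum and differed only in time by their labels, whereas the 0 h cultures, used here only for the first-day change, were still in 20%. Per the labels, replicates A and B belonged to batch 1 and C and D to batch 2 at both times. The labels do not say whether replicates came from separate animals, so p-values measure only the spread between these libraries.

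Satellite cells are the stem cells of skeletal muscle. When mitogens are withdrawn they leave the cell cycle, switch on myogenic transcription factors and then fuse into multinucleated myotubes, which build sarcomeres and the proteins of contraction and calcium release. In culture the early part of this programme is commonly called commitment and the later part maturation, and genes of the contractile apparatus become some of the most abundant transcripts of a myotube. The deposited table gives Ensembl identifiers without symbols, and 0 of its 27607 identifiers could be paired with a symbol in the gene table used here. The commitment of the 24 h cells and the muscle identity of the cultures could thus not be checked against marker genes, gene lists of myogenesis, sarcomere, cell cycle or other cell types were not tested, and no sequence is shown. In bulk libraries, a change in the number of cells of one kind cannot be told apart from a change of RNA per cell.

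Total counts ranged from 21100797 to 35140615 in the 8 libraries. Replicate C at 96 h stood apart from the other 3 in its count composition, with a TMM scaling factor of 0.837 against 0.858 to 0.861. TMM (trimmed mean of M-values) sets library sizes so that most genes do not shift. Levels are given in CPM, the count of a gene scaled to a common TMM-adjusted library size, unless stated otherwise. Over the 9217 genes that averaged 10 CPM or more, replicates differed with a median SD of 0.095 on the log2 scale at 24 h and 0.10 at 96 h.

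Between 24 h and 96 h, both in 2% serum, most measured genes changed. Of 14636 genes tested, 10705 (73.1%) were called, at an adjusted p under 0.05 in edgeR's quasi-likelihood test, with 5351 higher and 5354 lower at 96 h (36.6% each). The 4 libraries of one time did not overlap those of the other for 65.6% of genes. Most changes were small, since 67.7% of the called genes changed less than 2-fold. At least 2-fold changes were called for 1796 genes higher (12.3%) and 1660 lower (11.3%). Beyond 4-fold the counts were 730 higher and 365 lower, and beyond 16-fold 238 higher and 16 lower. With this scaling, rises outnumbered falls beyond 4-fold and 16-fold, while the numbers of all called genes were nearly equal.

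These balances are relative to the scaling. When library sizes were used unscaled, the median log2 change of all genes moved from -0.02 to -0.49, and the calls became 2622 higher and 9298 lower, which put 22.0% of them on the higher side in place of 49.99%. The changes of at least 2-fold turned to 1068 higher and 3650 lower, and those beyond 4-fold were not recounted. RLE scaling (the size factors of DESeq2) gave 5472 higher and 5215 lower. A test against a 2-fold minimum, a stricter question, called 2308 genes, 1315 higher and 993 lower. Without replicate C at 96 h the test called 10405 genes, and without replicate C at 24 h 10452.

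**Figure D1:**
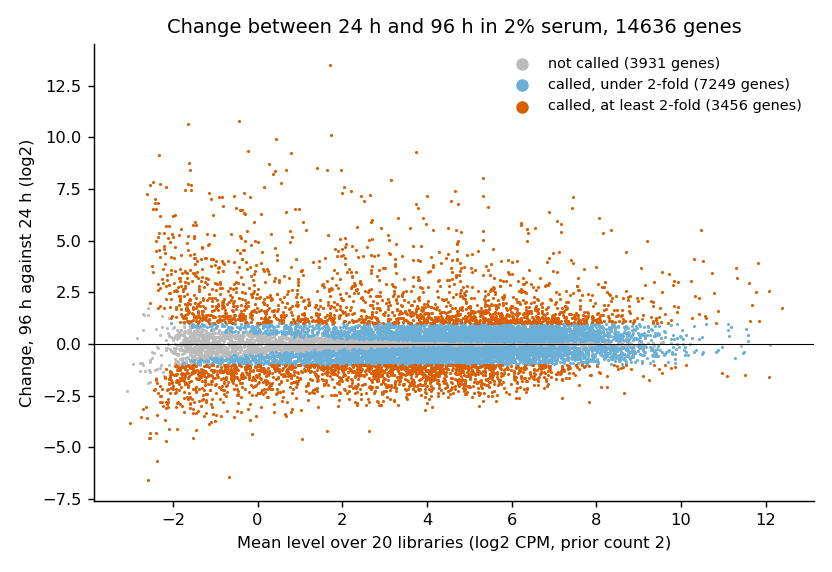
The log2 change of each of 14636 genes at 96 h against 24 h (vertical) is plotted over its mean level in log2 CPM across all 20 libraries (horizontal). Orange points mark the 3456 genes called and changed at least 2-fold, blue points the 7249 called genes under 2-fold, and grey points the 3931 genes not called. Rises reach 13.52 and falls -6.59 on the log2 scale.

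More genes were called at higher levels, where standard errors were smaller. Genes were put in 3 equal groups by mean log2 CPM over all libraries. This mean holds the libraries after 24 h, so a rise itself moves a gene up in level and a fall moves it down. What part this had in the balance of rises and falls per group was not tested. In the low group (median 1.72 CPM) 62.7% were called, against 74.5% in the middle group (median 19.6 CPM) and 82.2% in the high group (median 90.9 CPM). The median size of the change was 0.70 on the log2 scale in the low group and 0.44 in the high group, with median standard errors of 0.21 and 0.063. In the low group 1302 genes were called higher and 1758 lower, and in the high group 2390 higher and 1619 lower. Unscaled library sizes turned the high group to 1100 higher and 3088 lower, so this order too is relative to the scaling. In the high group, 584 genes rose at least 2-fold and 262 fell as much, which also turned without scaling (284 and 766). With TMM scaling the low group held 817 such rises and 879 such falls. It also held 423 of the 730 rises beyond 4-fold and 234 of the 365 falls.

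A few genes went from no detected count to clear detection, and none went the other way under the same rule. In the whole table, 11 genes lacked any count in the 24 h libraries and held 10 or more in each 96 h library, and 0 genes had the reverse pattern. Over the 4 libraries at 96 h together, these 11 genes held between 57 and 731 counts, with a median of 89. Of the 11, 8 were also without counts before the change of serum. By 48 h, 2 of them held 10 or more counts in each library, and by 72 h 5 did.

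Single libraries show these changes in 4 genes, 2 that rose and 2 that fell. They were picked by size from called genes with at least 10 CPM on average and no overlap between the times, so their separation was required by the choice and their values are a description. Per the rule, 1 of each pair had the largest log2 change and the other the largest change in CPM, among 3638 genes that rose and 2990 that fell.

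ENSBTAG00000011392 had the largest log2 rise. Its counts at 24 h were 0, 1, 1 and 0 in replicates A to D, and its levels at 96 h were 237, 185, 314 and 195 CPM. The 4 libraries at 24 h were at the limit of detection and all 4 at 96 h were far above it, with replicate C highest. The ratio of counts per scaled library size was 13961, with a 95% exact binomial counting interval from 3864 to 115286 (edgeR adjusted p = 3.62e-12). The rise came late, with 2.17 ± 0.477 CPM after 48 h and 64.1 ± 34.1 CPM after 72 h (± SD of 4 libraries). At 72 h the libraries were uneven, from 20.0 CPM in replicate B to 95.4 CPM in replicate C. At 0 h the gene held 17 counts over the 4 libraries, and its first-day change was not called (edgeR adjusted p = 0.346).

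ENSBTAG00000011803 gained the most CPM and became the most abundant gene of the cultures. It stood at 1480, 1530, 2343 and 1614 CPM in replicates A to D at 24 h and at 25187, 25275, 28266 and 27561 CPM at 96 h. Replicate C was the highest at both times. At 96 h it held 2.27% of all counts, against 0.207% at 24 h, and went from rank 26 to rank 1. Rank 1 was already reached at 48 h, at 15640 CPM on average. The log2 change was 3.94 ± 0.21 (standard error; edgeR adjusted p = 2.29e-11). Its first-day change had been 5.36 ± 0.22 (standard error; edgeR adjusted p = 1.79e-12), from 42.1 ± 15.5 CPM at 0 h (SD, n = 4).

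ENSBTAG00000037526 had the largest log2 fall and had risen on the first day. Its levels were 36.8, 35.6, 32.3 and 35.8 CPM at 24 h and 1.98, 1.82, 1.81 and 1.99 CPM at 96 h, in replicates A to D. Both sets were tight, and the gap between them was wide. The log2 change was -4.20 ± 0.12 (standard error; edgeR adjusted p = 5.16e-19). From 0 h to 24 h it had gained 1.95 ± 0.10 on that scale (standard error; edgeR adjusted p = 1.83e-14), and at 96 h it lay below its 0 h level of 9.10 ± 0.840 CPM (SD, n = 4), by -2.24 on the log2 scale (edgeR adjusted p = 4.13e-14). Most of the later fall lay in the second day, with 6.07 ± 0.692 CPM at 48 h.

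ENSBTAG00000018463 lost the most CPM. It was the most abundant gene at 24 h, with 8782, 8569, 7361 and 8468 CPM in replicates A to D, and stood at 3003, 2975, 2429 and 2477 CPM at 96 h, on rank 39. At 96 h both libraries of batch 1 lay above both of batch 2. The log2 change was -1.61 ± 0.06 (standard error; edgeR adjusted p = 1.58e-17), after a first-day gain of 0.42 ± 0.05 (standard error; edgeR adjusted p = 3.99e-07).

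**Figure D2:**
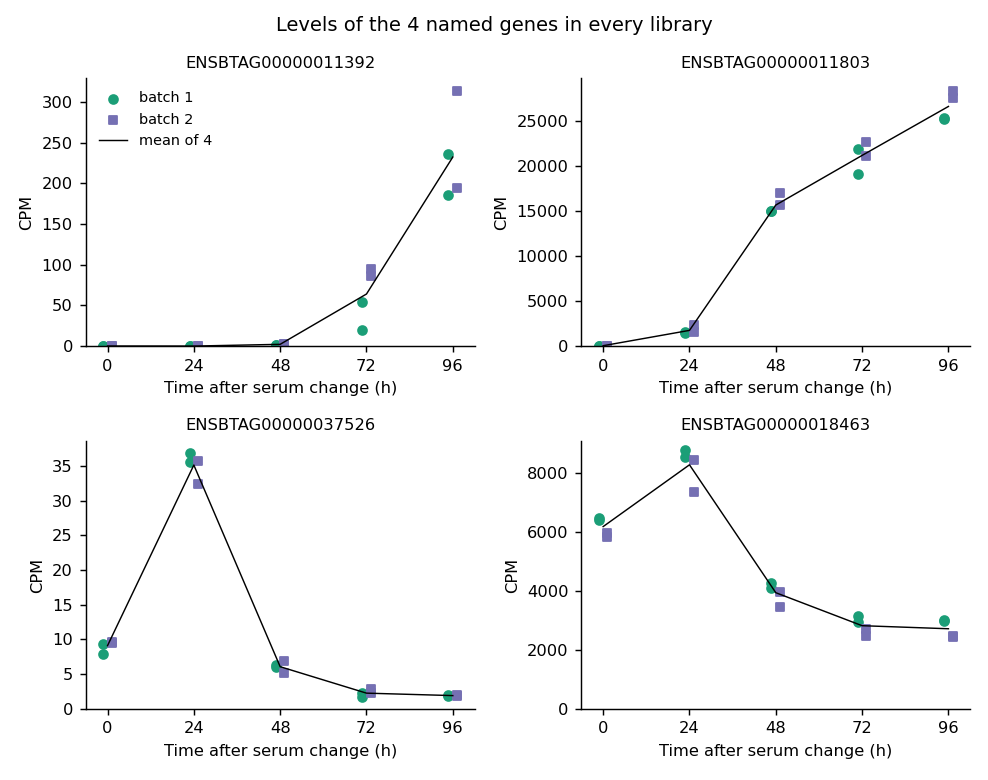
CPM of the 4 named genes in each of the 20 libraries over hours after the change of serum, with batch 1 as circles, batch 2 as squares and a line through the mean of 4 replicates. The 2 upper genes climb to 96 h, reaching 233 and 26572 CPM on average, and the 2 lower genes peak at 24 h, at 35.1 and 8295 CPM.

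The change concentrated the counts in fewer genes. The 10 most abundant genes of each library held 4.99, 4.98, 4.66 and 4.72% of its counts in replicates A to D at 24 h and 11.4, 11.2, 11.9 and 11.5% at 96 h, with no overlap. The means were 4.84 ± 0.173% and 11.5 ± 0.310% (SD of 4 libraries; two-sided exact permutation test, p = 0.0286, adjusted p = 0.0286 over 4 measures, the smallest p that 4 against 4 libraries allow). Within batches the means went from 4.98 to 11.3% in batch 1 and from 4.69 to 11.7% in batch 2. The number of most abundant genes that together hold 50% of a library's counts was 922 ± 7.55 at 24 h and fell to 507 ± 9.71 (SD of 4 libraries; two-sided exact permutation test, p = 0.0286). Genes at 1 CPM or more of the unscaled library size numbered 12951 ± 21.9 at 24 h and 12553 ± 52.7 later (SD of 4 libraries; two-sided exact permutation test, p = 0.0286). On unscaled library sizes the median log2 change of all genes was -0.49, and the 1 CPM limit was not adjusted for this. These measures all describe how counts are spread over genes and are not separate signs. The permutations moved libraries freely between batches.

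The very top of the ranking was exchanged and the wider top in part. The leading 10 at both times shared 1 gene, and the leading 100 shared 52. Of the 10 that led at 96 h, all 10 were called at least 2-fold higher than at 24 h and 9 at least 4-fold. Of the 10 that led at 24 h, 7 were called lower at 96 h, 4 of them at least 2-fold, and 2 were called higher. Among all genes tested, 36.6% were called in each direction, with rises of 2-fold or more in 12.3% and such falls in 11.3%. The wider top was more mixed at 24 h, where 51 of the leading 100 were called lower, 13 of them by 2-fold or more, and 41 higher. From the leading 100 at 96 h, 84 were called higher, 67 of them by 2-fold or more, and 14 lower. Being chosen for their level at one time, leading genes tend to be high there, so these counts describe the exchange and test nothing. The 10 leaders of 24 h went from 4.79 ± 0.230% of counts to 2.97 ± 0.0676% (SD of 4 libraries).

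The 96 h and 24 h comparison and the first-day comparison share the 24 h libraries, so an error in those libraries would push both changes in opposite directions. Their relation was therefore read across batches. Genes were classed by the change from 0 h to 24 h in 1 batch, and their change from 24 h to 96 h was measured in the other, both ways round. No library then served both steps. Classes of rise and fall, on either step, held only genes called in the batch that chose them. A total of 14579 genes passed the filter on low counts in both batches. Each batch was fitted alone with 2 libraries per time. In batch 2 alone, 31.4% of genes were called higher and 30.3% lower at 96 h than at 24 h, and in batch 1 alone 33% and 31.8%. On the first day, 27.4% were called higher and 30.9% lower in batch 1, and 24.9% and 25.5% in batch 2.

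On the median, genes kept moving in the direction of their first day, by less than on that day. Genes that rose at least 2-fold on the first day (1849 classed in batch 1, 1656 in batch 2) had median later changes of 0.63, 0.55, 0.41 and 0.49 on the log2 scale in the 96 h libraries A to D, each against the 24 h libraries of its own batch. Genes that fell at least 2-fold (848 and 756) had medians of -0.55, -0.62, -0.62 and -0.67. The 4 libraries of the risers all lay above 0 and those of the fallers all below it. For genes not called on the first day (5961 and 7205) the medians lay between -0.0042 and 0.045. Smaller first-day changes were followed by smaller later ones, with means of the library medians of 0.20 ± 0.0460 after a rise under 2-fold and -0.21 ± 0.0520 after a fall under 2-fold, against 0.52 ± 0.0920 and -0.61 ± 0.0487 in the 2-fold classes (SD, n = 4 each). These 4 values share gene classes and controls within a batch and are not independent. With library sizes alone the medians of the 2-fold classes were 0.034 and -1.06, and that after a rise under 2-fold turned to -0.27. Taken relative to the median of all genes under the same scaling, they were 0.51, -0.58 and 0.21, close to the 0.53, -0.60 and 0.21 with TMM.

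The continuation was a shift of the middle and not a rule for single genes. Of genes that had risen at least 2-fold in batch 1, 47.7% were called higher again in batch 2 between 24 h and 96 h, 21.9% were called lower and 30.4% were not called. With the batches exchanged the shares were 53.5%, 21.8% and 24.7%. Of genes that had fallen at least 2-fold in batch 1, 50.1% were called lower again in batch 2, 11.9% were called higher and 38.0% were not called, and 52.2%, 14.3% and 33.5% with the batches exchanged. These shares too are relative to the scaling. With library sizes alone, and classes made on that scale, 35.1% of the risers were called higher again and 35.6% lower in batch 2, and 42.8% and 35.0% in batch 1. For all genes the shares were then 14.9% higher and 57.2% lower in batch 2, and 16.7% and 58.1% in batch 1. The fallers were called lower again in 65.4% and 64.9% of cases and higher in 5.80% and 7.58%. A turn of at least 2-fold was called for 14.1% and 14.9% of the risers and for 5.19% and 6.88% of the fallers. A further 2-fold move in the same direction was called for 35.4% and 40.9% of the risers and for 32.0% and 32.1% of the fallers, against 12% and 12.4% of all genes called 2-fold higher and 11.3% and 11% called 2-fold lower in the fits of batch 2 and batch 1. Over the genes, which are no independent replicates, the first-day change in batch 1 and the later change in batch 2 had a Pearson correlation of 0.31 and a Spearman correlation of 0.28, and the exchanged pair 0.35 and 0.30. The points share no library but do share the genes and any trait of a gene that acts in both batches, such as its level.

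The median later change grew with the size of a first-day rise and was nearly level past a 2-fold fall. The bin of more than 16-fold rise on the first day held 218 genes in batch 1 and 245 in batch 2. Its median later change in the other batch was 2.22 and 2.69 on the log2 scale. Of these genes, 62.8% and 70.2% were called at least another 2-fold higher in that other batch. Between 4-fold and 16-fold the medians were 0.83 and 0.91, and between 2-fold and 4-fold 0.33 and 0.41. Among genes that fell, the median was -0.69 and -0.56 after a fall of 2-fold to 4-fold and -0.71 and -0.70 after a larger one. The genes that fell more than 4-fold were near the limit of detection by then, with median levels of 0.602 and 0.501 CPM at 24 h, and what part this has in the flat end of the curve was not tested. The risers also had low levels at 24 h, with medians of 5.28 and 5.65 CPM against 18.7 CPM for all genes in both batches. Restricted to genes with at least 10 CPM at 24 h in the batch that classed them, a choice made after the values were seen, the median later change was 0.63 for the risers and -0.71 for the fallers.

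**Figure D3:**
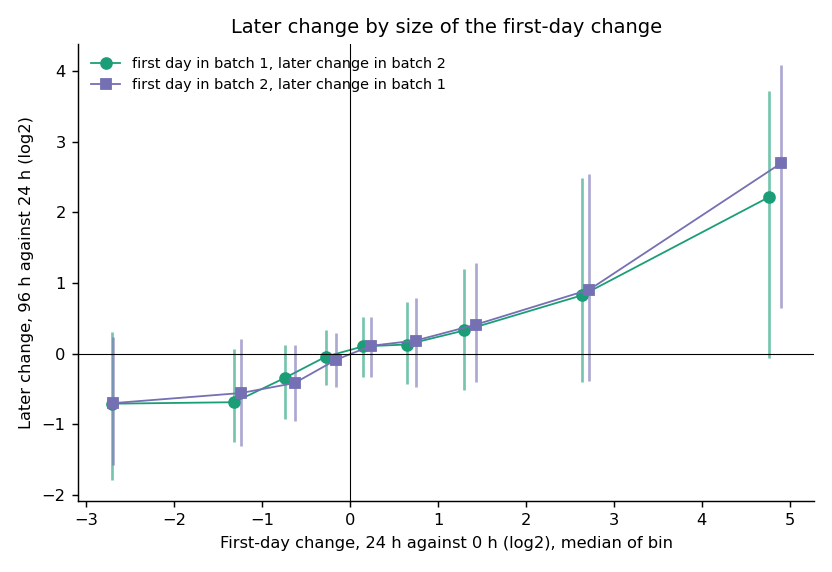
Median later change (96 h against 24 h, log2, vertical) of genes binned by their first-day change (24 h against 0 h, log2, horizontal), with the first day taken from 1 batch and the later change from the other. Vertical bars span the interquartile range of the genes in a bin, and the series are offset sideways by 0.05. The series climb from -0.71 and -0.70 at the far left to 2.22 and 2.69 at the far right, and the bars of 9 of 9 bins in the first series and 8 of 9 in the second cross 0.

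Read backwards, genes that rose after 24 h had been called higher on the first day more often than all genes. Those that fell after 24 h had been called lower on the first day more often than all genes. Of 1801 genes at least 2-fold higher at 96 h than at 24 h in batch 1, 54.2% were called higher on the first day in batch 2, 8.66% lower and 37.1% neither, where all genes had 24.98%, 25.6% and 49.4%. For the 1742 chosen in batch 2 and read in batch 1, the shares were 54.8%, 11.4% and 33.8%, beside 27.6%, 31.5% and 40.9% for all genes. A first-day rise of at least 2-fold preceded 37.6% and 37.5% of these late rises, against 11.4% and 12.7% of all genes. Of 1604 and 1646 genes at least 2-fold lower at 96 h, 44.0% and 47.1% were called lower on the first day and 23.1% and 25.6% higher. For all genes these shares were 25.6% and 31.5% lower and 24.98% and 27.6% higher. A first-day fall of at least 2-fold preceded 15.1% and 16.5% of them, and a first-day rise of at least 2-fold 15.4% and 15.9%. Most late fallers had thus changed less than 2-fold on the first day or were not called. Among all genes first-day rises of this size stood at 11.4% and 12.7% and falls at 5.19% and 5.82%. The difference between late risers and late fallers was not tested.

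The late changes were mostly made by 48 h. In genes at least 2-fold higher at 96 h, chosen in the other batch, the median log2 change against 24 h was 1.16 ± 0.0332, 1.48 ± 0.0551 and 1.65 ± 0.0448 after 48, 72 and 96 h (SD of 4 libraries). The first of the 3 days thus held 70.2% of the median rise. In genes at least 2-fold lower the medians were -0.84 ± 0.0577, -1.30 ± 0.0377 and -1.40 ± 0.0632, with 60.3% reached at 48 h and 93.2% at 72 h. At 0 h the late risers had lain at -0.65 ± 0.0415 relative to 24 h and the late fallers at 0.30 ± 0.0286, so the median of both groups had started in its later direction on the first day. Over all genes the steps called fewer genes in turn, 63.2% from 24 h to 48 h, 41.4% from 48 h to 72 h and 37.3% from 72 h to 96 h.

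**Figure D4:**
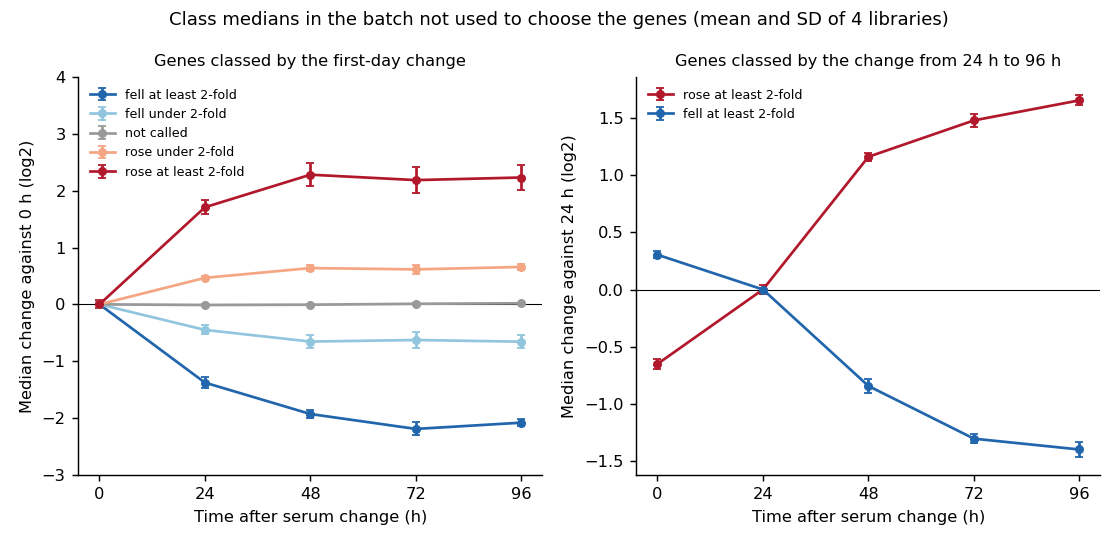
Median log2 change over hours after the change of serum, for genes classed by the first-day change and set against 0 h (left) and for genes classed by the change from 24 h to 96 h and set against 24 h (right). Each point is the mean of 4 library medians with SD bars, in the batch not used to choose the genes. First-day risers of at least 2-fold stand at 1.71 at 24 h and 2.23 at 96 h, and late risers reach 1.16 of 1.65 by 48 h.

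Seen against 0 h, the median of the first-day risers changed little after the second day, and that of the first-day fallers fell on into the third day. First-day risers of at least 2-fold had medians of 1.71 ± 0.125, 2.28 ± 0.205, 2.19 ± 0.223 and 2.23 ± 0.212 after 24, 48, 72 and 96 h (SD of 4 libraries). At each of these times the libraries of batch 1 lay above those of batch 2, which were read on other genes. Their SD holds this offset between batches and does not measure the spread of a change over time. In replicates A to D the risers stood at 2.47, 2.45, 2.08 and 2.14 at 48 h. At 72 h each was lower, at 2.37, 2.39, 1.99 and 2.00, and at 96 h they stood at 2.43, 2.39, 2.00 and 2.11. First-day fallers went from -1.38 ± 0.0971 to -1.93 ± 0.0703, -2.19 ± 0.113 and -2.08 ± 0.0567. In replicates A to D the fallers stood at -2.01, -1.96, -1.90 and -1.85 at 48 h, at -2.30, -2.27, -2.14 and -2.06 at 72 h and at -2.08, -2.16, -2.04 and -2.05 at 96 h. Each replicate was lower at 72 h than at 48 h, and each was higher again at 96 h than at 72 h, by very little in replicate D. Replicate letters do not pair the libraries, and these steps were not tested.

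The late risers took over a large part of the counts. Genes at least 2-fold higher at 96 h, chosen in the other batch, took 6.26 ± 0.116, 11.1 ± 0.664, 27.5 ± 0.971, 33.4 ± 0.991 and 38.6 ± 0.751% of the counts after 0, 24, 48, 72 and 96 h (SD of 4 libraries). Genes at least 2-fold lower took 12.9 ± 1.11, 10.6 ± 0.764, 4.68 ± 0.493, 3.25 ± 0.327 and 2.82 ± 0.303%. At 24 h both groups held about the same share. Their separation at 96 h was largely fixed by the choice. Among genes called and changed at least 2-fold in one batch, 99.4% and 99.6% kept their sign in the other. The shares are thus a description of how much of the RNA counted these genes made up.

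**Figure D5:**
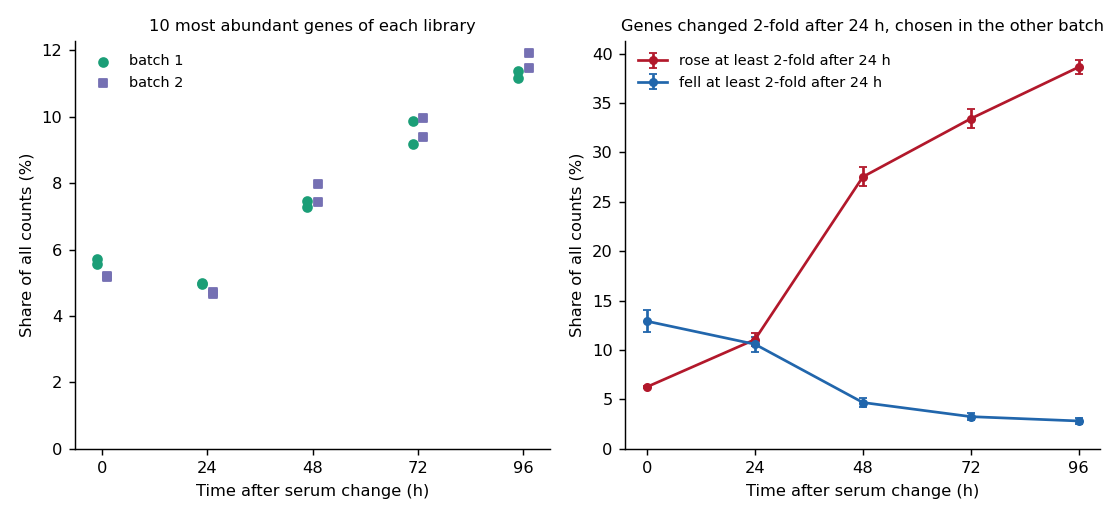
Share of all counts (%) over hours after the change of serum, for the 10 most abundant genes of each library (left, 1 point per library, circles for batch 1 and squares for batch 2) and for genes changed at least 2-fold after 24 h and chosen in the other batch (right, mean and SD of 4 libraries). The left points rise from 4.66 to 4.99% at 24 h to 11.2 to 11.9% at 96 h, and on the right the risers reach 38.6% and the fallers 2.82%.

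Each batch gave its own estimate of the change. Across 14579 genes, the log2 changes from 24 h to 96 h in batch 1 and in batch 2, which share no library, had a Pearson correlation of 0.94 and a Spearman correlation of 0.93. Among 3405 genes called and changed at least 2-fold in batch 1, 99.4% moved with the same sign in batch 2. A test of the difference between batches called 0 genes (edgeR batch by time contrast, 0%), with 726 genes (4.96%) at an unadjusted p under 0.05. DESeq2 also called 0, with 495 at an unadjusted p under 0.05. The count depended on single libraries and on the filter. It was 9 without replicate C at 24 h, 5 without replicate C at 96 h and 57 without the filter on low counts. The contrast rested on 2 libraries per time in each batch, so 0 calls do not show that the batches changed alike.

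Set beside the first day, the later change touched more genes. Over the same 14636 genes, 24 h against 0 h called 66.2%, with 4636 higher and 5047 lower, and 96 h against 24 h called 73.1%. The median size of the change was 0.37 on the log2 scale for the first day and 0.51 for the next 3 days. On the first day 1851 genes rose and 787 fell at least 2-fold, against 1796 and 1660 from 24 h to 96 h. The falls of 2-fold or more were thus the part in which the counts differed most. Beyond 4-fold, 858 genes were called higher and 190 lower on the first day, against 730 and 365 later. With library sizes alone, 1990 genes rose and 688 fell at least 2-fold on the first day. The later counts were then 1068 and 3650. Both comparisons share the 24 h libraries, the second spans 3 times as many hours, and only the first included the change of medium.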

How the data were processed

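The authors deposited raw read counts per gene for 20 polyA libraries, 1 column each. Per the submitters' processing notes, STAR 2.7 and featureCounts were used with genome build bosTau9. Which annotation and strand setting was used is not given in the sources used here. In all, the table held 27607 Ensembl identifiers and 0 lines without a gene, and all columns were matched by name.

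The analysis ran in R 4.3.3. The filterByExpr function of edgeR 4.0.16 (minimum count 10, minimum total 15) kept 14636 genes. Its quasi-likelihood model took batch and harvest time as terms and used the 20 libraries together, with TMM scaling and robust estimation. Tests were two-sided, with Benjamini-Hochberg adjustment over all genes kept, and calls needed an adjusted p below 0.05. Standard errors of log2 changes were derived as the size of the change divided by the square root of the test's F statistic. Medians per library were taken on log2 CPM (prior count 2). For readings across batches, each batch was filtered, scaled and fitted alone. DESeq2 1.42.0 and other scalings, filters, sample sets and left-out libraries were alternatives. The procedure was also run on simulated counts in which few genes changed. Such counts cannot check the scaling of data in which most genes were called. Depth was 21100797 to 41998509 counts per library, and counting intervals (95%) cover counting error only, since no molecular identifiers are stated.

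Without symbols, the named genes were the largest log2 change and the largest CPM change in each direction, among called genes that averaged at least 10 CPM and did not overlap. The comparison and the rules were chosen with earlier results of these data known. The planned gene lists were not tested for lack of symbols.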

Additional observations from a re-analysis of the deposited data

Results flagged for a closer look

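Of 31 sets of 4 replicate values checked with Dixon's test, 6 held a library far from the other 3, and chance alone gives about 1 in 20. All 6 were replicate C. ENSBTAG00000011803 stood at 2343 CPM in replicate C at 24 h, against 1480 to 1614 CPM in the others. At 96 h, replicate C had a TMM scaling factor of 0.837 against 0.858 to 0.861, held 30.8% of its counts in the 100 most abundant genes against 30.2 to 30.3%, needed 492 genes for 50% of its counts against 510 to 512, and had 12474 genes at 1 CPM or more against 12572 to 12584. These 4 measures all describe how counts are spread over genes and are not separate signs. At 72 h, the median change against 24 h of genes that fell at least 2-fold by 96 h was -1.36 in replicate C and -1.29 to -1.28 in the others.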

How the results depend on the processing

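The restriction to at least 10 CPM at 24 h was added after the data were examined. A 2-fold minimum lowered the calls to 2308. Without single libraries they ranged from 10294 to 10531, and from 9195 to 9633 for the first day. The batch difference gave 57 calls without the low-count filter and 0 to 9 without single libraries. With library sizes alone, the median later change was -1.06 for first-day fallers and 0.034 for risers, and late risers stood at 1.42 at 48 h. First-day classes at 4-fold gave 0.96 for the risers. With at least 10 CPM at 24 h, risers were at 0.63, fallers at -0.71 and the mean Pearson correlation, 0.33 otherwise, at 0.40. The cause was not tested. Genes at least 2-fold higher and lower numbered 1110 and 965 at a mean of at least 5 CPM, where fewer genes were tested. Of 297 values under alternatives, 277 kept their direction and size or call. All 80 for the named genes did, which the choice of these genes nearly fixed.

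Replicate letters were treated as names and not as pairs. Deviations of the same letter at 24 h and 96 h correlated between -0.24 and 0.13, with 1 of 4 pairs over 0.1 and 0 of 4 libraries at 96 h closest to their own letter. A fit with the letter as replicate block called 10587 genes between 24 h and 96 h and 9590 on the first day.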
